A study of Saccharomyces cerevisiae with 8 samples.

Results

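The genes described here encode enzymes of purine synthesis in budding yeast, Saccharomyces cerevisiae: ADE1, ADE4, ADE5,7, ADE6, ADE8, ADE12, ADE13, ADE16 and ADE17. The list names genes of 1 pathway and was drawn up with earlier results of these data known; probe sets were then found by gene symbol in the platform annotation. Of these 9 genes, 8 had a probe set of their own (1 each), among 5656 genes with such a probe set on the array. No probe set was named ADE5,7 in the annotation used here, so that bifunctional gene was not analysed here. Total RNA of 8 haploid yeast samples derived from W303a was hybridised to 1 Affymetrix array each. The titles call them biological replicates of a mutant and a control strain, while the design text speaks of 4 isogenic strains per group. Per the labels, all have lost the native eIF5A genes HYP2 and ANB1 by disruption and live on human EIF5A1 from a plasmid. The 4 samples labelled wild type carried the unmutated human protein and grew normally, and the 4 labelled V81G carried the point mutant V81G, which makes growth temperature-sensitive. All were cultured at 25 °C, the permissive temperature, and harvested early in log phase, so the arrays describe the mutant under conditions that it tolerates. The question put to the purine genes is whether their RNA levels differ between the groups so labelled.

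The de novo pathway builds the purine ring stepwise on phosphoribosyl pyrophosphate (PRPP) and ends in inosine monophosphate (IMP), from which separate arms lead to AMP and GMP. In yeast, transcription of most ADE genes is raised by the activator Bas1 together with Pho2 when adenine is scarce, and intermediates late in the pathway promote the contact between both proteins. Laboratory strains of the W303 background commonly carry a nonsense mutation in ADE2, which blocks the pathway unless it is complemented. The labels give neither the state of ADE2 in these strains nor the adenine content of the medium.

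Levels are log2 probe-set intensities as mean ± SD over 4 arrays, and differences are V81G less wild type on the same log2 scale, with their standard error (SE). The deposited intensities ran from 89.9 to 44207 on the linear scale, and array medians lay between 1099 and 1190. A gene was called at an adjusted p under 0.05 in limma, a linear model fitted across all 9275 probe sets with Benjamini-Hochberg adjustment. Per the run sheets, day 1 of hybridization held replicates 1 and 2 of both groups, and day 2 held replicates 3 and 4. On day 1 both V81G arrays ran on fluidics station 2 and both wild-type arrays on station 1, so station and group cannot be told apart on that day. On day 2 only wild type 4 ran on station 2. A fit with both day and station takes the station's part from that array and from the change of the group difference between days. In that fit, station and such a change cannot be fully told apart. The HYP2 probe set, which should report a disrupted gene, read 15.42 ± 0.01 in the arrays labelled wild type and 12.02 ± 0.23 in those labelled V81G. The wild-type values lay at or near the array maxima (15.42 to 15.43), so a ceiling may compress their spread and the difference. ANB1, the other disrupted gene, read 14.04 ± 0.13 and 14.18 ± 0.20 in the same order and was not called (limma adjusted p = 0.595). Both go against the described genotype, though whether either probe set reads the other gene or a disrupted allele was not tested. The groups are therefore called by their labels. Markers of both mating types gave signal, so they do not settle the mating type behind the name W303a. In the arrays labelled wild type, 3 of 5 a-specific genes (STE6, and STE2 and BAR1 at 8.11 and 8.58) and 1 of 4 alpha-specific genes (MF(ALPHA)2, at 8.80) averaged below 9.03, the limit of the dimmest 25% of probe sets. The others were brighter, MFA1 and MFA2 at 10.42 and 11.40 and STE3, SAG1 and MF(ALPHA)1 at 11.21, 11.40 and 14.47. In those labelled V81G, 1 of 5 a-specific genes (BAR1) and 0 of 4 alpha-specific genes averaged below that limit. SAG1, STE2 and STE6 were called higher in V81G, by 1.77, 1.14 and 0.61 (limma adjusted p = 4.25e-05, 0.000408 and 0.0362). The other markers were not called.

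Purine synthesis transcripts did not move as a block. ADE8 rose, ADE1, ADE12 and ADE17 fell, and ADE4, ADE6, ADE13 and ADE16 did not pass the test. The calls thus covered 50% of the measured genes, against 21.5% of all 5656 genes. By direction, 1 of 8 was called higher where 9.21% of all genes were, and 3 of 8 lower where 12.3% were. The difference was negative for 7 of the 8 genes and for 58.8% of all genes, and the median was -0.46 against -0.08 over all genes. Groups did not overlap for the 4 called genes (1 higher, 3 lower), where 28.1% of all genes had groups without overlap (11.5% higher, 16.7% lower). The count of genes called lower was 1 without wild type 1 or wild type 4, 2 without V81G 1, V81G 2, wild type 2 or wild type 3, and 4 without V81G 4. No test was made of the set as a whole. The 8 genes are spread over chromosomes I, IV, VII, XII, XIII and XIV.

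**Figure D1:**
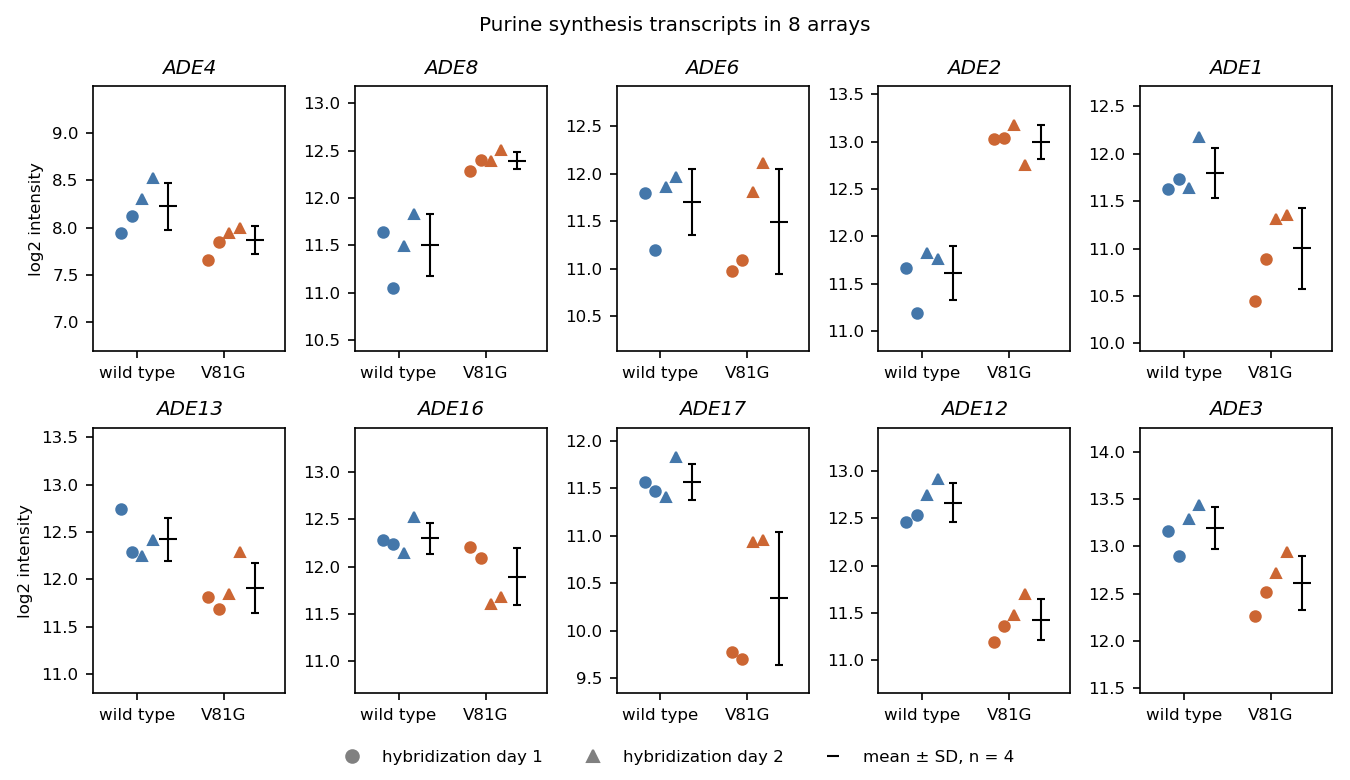
Log2 intensity (vertical axis, the same span in every panel) of the 8 measured genes and of ADE2 and ADE3 in each array, by group label (blue wild type, orange V81G), with circles for hybridization day 1 and triangles for day 2; black bars are mean ± SD of 4 arrays. ADE8 and ADE2 are higher in every V81G array than in any wild-type array, ADE1, ADE12 and ADE17 are lower, and the V81G arrays of ADE17 split by day.

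The pathway opens with ADE4, which encodes the PRPP amidotransferase, the enzyme that commits PRPP to purines and is inhibited by purine nucleotides. Its signal was 7.66, 7.85, 7.95 and 8.00 in V81G arrays 1 to 4 and 7.95, 8.12, 8.30 and 8.53 in wild-type arrays 1 to 4. The groups met only at the lowest wild-type array. The difference was -0.36 ± 0.15 and did not pass the test (limma adjusted p = 0.148), with -0.28 on day 1 and -0.44 on day 2. With the day as a block it was called lower (adjusted p = 0.0446), as it was with day and station (adjusted p = 0.0212). All 8 values lay below 9.03, so background may shrink this difference.

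ADE8, the gene of the glycinamide ribonucleotide transformylase that adds the first folate-borne carbon to the growing ring, rose in the arrays labelled V81G. Its signal was 12.28, 12.40, 12.39 and 12.51 in V81G arrays 1 to 4 and 11.64, 11.06, 11.50 and 11.83 in wild-type arrays 1 to 4. Every V81G array was brighter than every wild-type array, and the V81G values were the tighter ones (SD 0.09 against 0.33). The rise was 0.89 ± 0.17, or 1.85-fold (limma adjusted p = 0.00594), made up of 0.99 on day 1 and 0.78 on day 2. With day 1 alone the call was lost (adjusted p = 0.0502). It was kept in all 8 fits that left out 1 array (adjusted p at most 0.0192), with differences from 0.74 to 1.00. Of all genes, 95.9% had a lower difference than ADE8.

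ADE6 encodes the formylglycinamidine ribonucleotide synthetase, the next enzyme of the chain. It read 10.98, 11.09, 11.81 and 12.11 in V81G arrays 1 to 4 and 11.80, 11.19, 11.86 and 11.97 in wild-type arrays 1 to 4. The groups overlapped widely, and the V81G arrays of day 2 were as bright as the wild-type ones. The difference of -0.21 ± 0.28 did not pass (limma adjusted p = 0.685, 95% confidence interval -0.83 to 0.41), and its sign differed between the days, -0.47 on day 1 and 0.05 on day 2.

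ADE1 encodes the SAICAR synthetase, which attaches aspartate to the imidazole ring. Its signal was 10.45, 10.89, 11.32 and 11.36 in V81G arrays 1 to 4 and 11.63, 11.73, 11.63 and 12.18 in wild-type arrays 1 to 4. All V81G arrays were dimmer than all wild-type arrays, those of day 1 most of all. ADE1 fell by 0.79 ± 0.22 on the log2 scale (1.73-fold lower, limma adjusted p = 0.0351). The call is a narrow one, since it was lost in 6 of the 8 fits without 1 array, those that left out V81G 1 or 2 or any wild-type array (adjusted p up to 0.0972). The differences were -1.01 on day 1 and -0.57 on day 2, and day 2 alone did not pass (adjusted p = 0.112).

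ADE13 encodes adenylosuccinate lyase, which acts both late in IMP synthesis and in the last reaction towards AMP. It read 11.81, 11.69, 11.85 and 12.29 in V81G arrays 1 to 4 and 12.75, 12.28, 12.25 and 12.42 in wild-type arrays 1 to 4. Only V81G 4 reached into the wild-type range. The difference of -0.51 ± 0.17 did not pass the test (limma adjusted p = 0.0662), and was -0.76 on day 1 and -0.26 on day 2. Fitted with the day as a block it was called lower (adjusted p = 0.0476), as it was in the fit without V81G 4 (adjusted p = 0.0296). With the station added to the day it did not pass (adjusted p = 0.0620).

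ADE12 encodes adenylosuccinate synthase, which turns IMP from the shared trunk into the arm leading to AMP. Its signal was 11.19, 11.36, 11.48 and 11.70 in V81G arrays 1 to 4 and 12.46, 12.54, 12.75 and 12.91 in wild-type arrays 1 to 4. The brightest V81G array stayed well under the dimmest wild-type array. ADE12 fell by 1.23 ± 0.15 on the log2 scale, 2.35-fold (limma adjusted p = 0.000642). The differences of the days were nearly equal, -1.23 and -1.24, and the call was kept in all 8 fits without 1 array (adjusted p at most 0.00330). Of all genes, 1.52% had a lower difference.

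**Figure D2:**
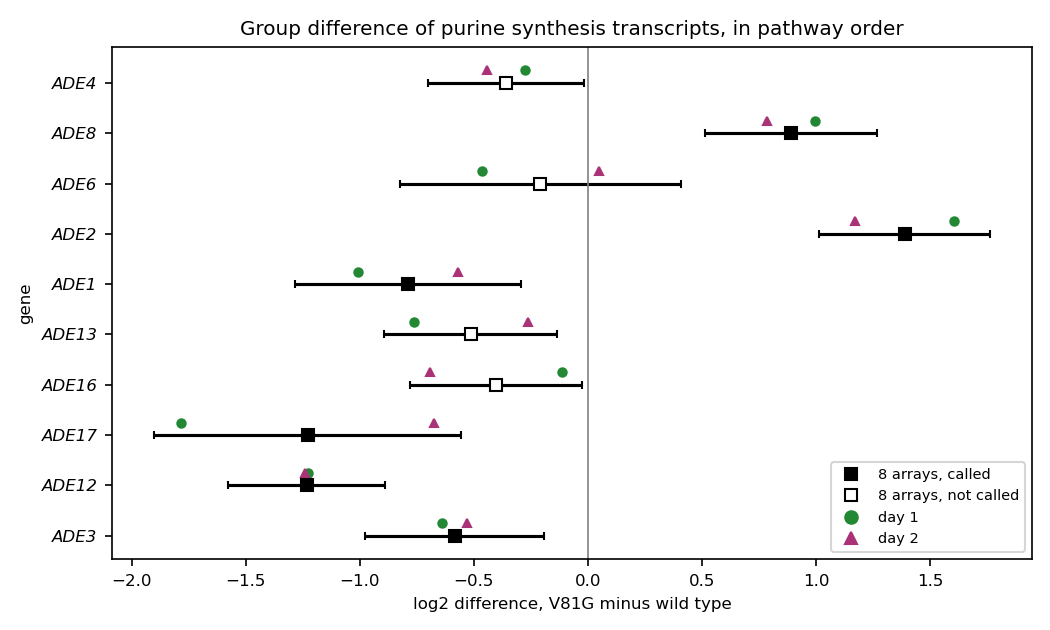
Log2 difference, V81G minus wild type (horizontal axis), for the measured purine synthesis genes in pathway order, with ADE2 in its place and ADE3, of folate metabolism, at the foot. Squares with bars are the 8-array estimate with its 95% confidence interval (filled where the limma adjusted p is under 0.05), and circles and triangles are the differences within day 1 and day 2; ADE12 has the same difference on both days, at -1.23 and -1.24, while that of ADE17 is -1.78 and -0.68.

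ADE16 and ADE17 are paralogs that encode isozymes for the closing reactions to IMP, the AICAR transformylase and IMP cyclohydrolase. The signal of ADE17 was 9.77, 9.70, 10.93 and 10.96 in V81G arrays 1 to 4 and 11.57, 11.47, 11.41 and 11.83 in wild-type arrays 1 to 4. The groups did not overlap, and within the group labelled V81G both arrays of day 1 lay far below both arrays of day 2. ADE17 fell by 1.23 ± 0.30 on the log2 scale, 2.34-fold (limma adjusted p = 0.0200), with differences of -1.78 on day 1 and -0.68 on day 2. Day 2 alone did not pass (adjusted p = 0.0517), and neither did the fits without wild type 1 (adjusted p = 0.0565) or wild type 4 (adjusted p = 0.0640). ADE16 read 12.21, 12.09, 11.60 and 11.68 in V81G arrays 1 to 4 and 12.28, 12.24, 12.14 and 12.53 in wild-type arrays 1 to 4. Here the order of the days was turned round, with the V81G arrays of day 1 close to the wild-type arrays and those of day 2 below them. Its difference, -0.40 ± 0.17, did not pass (limma adjusted p = 0.141), and was -0.11 on day 1 and -0.69 on day 2, where it passed alone (adjusted p = 0.0439). Blocking by day alone, ADE16 did not pass (adjusted p = 0.0792), and with day and station as covariates it was called lower, at -0.50 ± 0.10 (adjusted p = 0.00520).

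Within an array, ADE17 minus ADE16 cancels whatever both share. In the arrays labelled wild type this value was -0.72, -0.77, -0.74 and -0.70, a spread of 0.03 (SD). In V81G arrays 3 and 4 it was -0.67 and -0.72, close to that range, and in V81G arrays 1 and 2 it was -2.44 and -2.39. The paralogs thus changed unequally in the 2 V81G arrays of day 1 and nearly equally in those of day 2. The group means were -1.56 ± 0.99 (V81G, n = 4) and -0.73 ± 0.03 (wild type, n = 4), and the difference of -0.83 did not pass an exact two-sided permutation test (p = 0.371, where 4 against 4 arrays can reach 0.0286). That test took no account of the day, by which the V81G values split, so it cannot decide about either day alone. Within days the difference was -1.67 and 0.02, and on day 1 group and fluidics station cannot be told apart. Where sequences of paralogs are alike, a probe may also read the partner, which was not tested.

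**Figure D3:**
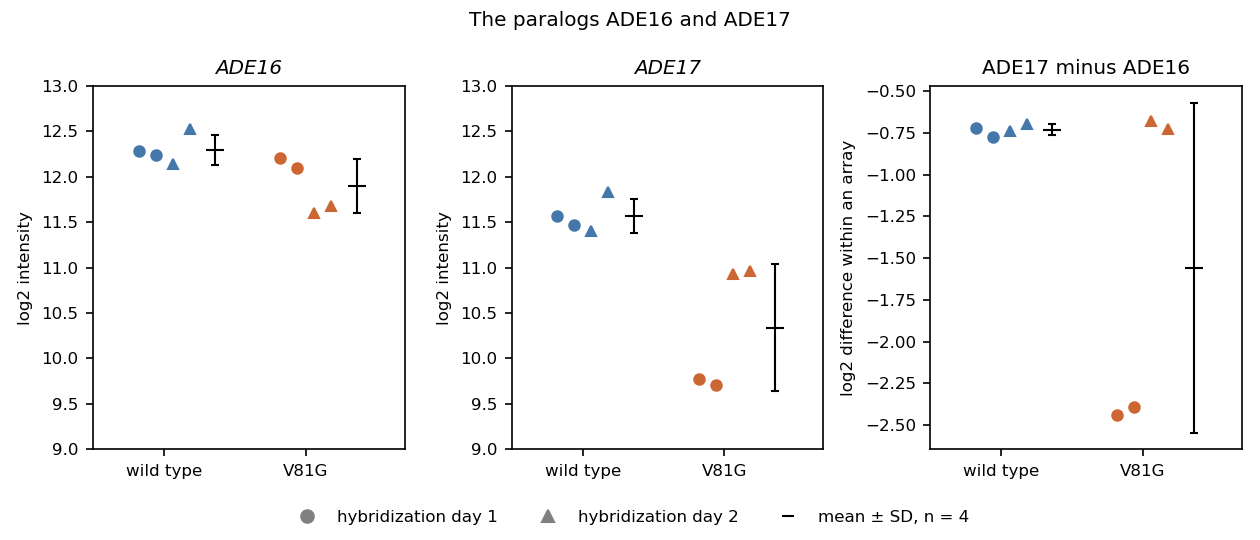
Log2 intensity of ADE16 and of ADE17 and, at right, their difference within each array (vertical axes), by group label, with circles for day 1 and triangles for day 2 and bars for mean ± SD of 4 arrays. The difference lies between -0.77 and -0.67 in 6 arrays and at -2.44 and -2.39 in the V81G arrays of day 1.

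Whether the group difference itself differed between days was tested as an interaction of group and day. For ADE17 it was 1.11 ± 0.24 smaller in size on day 2 (limma adjusted p = 0.0716), and with quantile normalization it passed (adjusted p = 0.0363). For ADE16 the day 2 difference was lower by 0.58 ± 0.23 (adjusted p = 0.296). None of the 8 genes passed after adjustment in limma, 2 had an unadjusted p under 0.05 (ADE16 and ADE17), and of all genes 1.86% passed after adjustment and 18.9% before it. The difference had the same sign on both days for 7 of the 8 genes, the exception being ADE6, and for 70.4% of all genes. With the day as a block 1 gene was called higher and 5 lower, ADE4 and ADE13 joining the others, where 12.5% and 18.3% of all genes were. With the station added, 5 were again called lower, but ADE16 took the place of ADE13. That fit called 3039 of all 9275 probe sets in either direction, where the fit with group alone called 1628.

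A pair of ADE genes outside the list complete the picture of the pathway. ADE2 encodes the carboxylase of aminoimidazole ribonucleotide, the reaction just before that of ADE1. Its signal was 13.03, 13.04, 13.18 and 12.75 in V81G arrays 1 to 4 and 11.66, 11.19, 11.83 and 11.76 in wild-type arrays 1 to 4, without overlap. It was 2.62-fold higher, with 1.60 on day 1 and 1.17 on day 2, so ADE2 and ADE8 went up while the genes called later in the trunk went down. ADE3 encodes the cytosolic C1-tetrahydrofolate synthase, which supplies the formyl-folate used by ADE8 and by the ADE16 and ADE17 enzymes. It read 12.27, 12.52, 12.71 and 12.94 in V81G arrays 1 to 4 and 13.16, 12.90, 13.28 and 13.43 in wild-type arrays 1 to 4, with V81G 4 just above wild type 2. ADE3 fell by 0.59 ± 0.18 on the log2 scale (limma adjusted p = 0.0462), a call lost in 6 of the 8 fits without 1 array (adjusted p up to 0.120).

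Of 43 related genes in 8 lists, all measured, 1 was called higher (ADE2), 10 lower and 32 did not pass, so 25.6% were called where 21.5% of all genes were. Of all genes 12.3% were called lower, the share to hold beside the count of each list below as well. Of the 43 differences 34 were negative, where 58.8% were over all genes, with a median of -0.23 against -0.08 over all genes. The count of 10 is less firm than it looks, since it ranged from 4 to 9 without 1 array, at 4 without V81G 1 or wild type 4 and 5 without wild type 1 or wild type 3, and was 6 after quantile normalization, where ADE3, SHM1, GUK1 and ADK1 lost their calls. The values of single lists follow in the order of the pathway.

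PRPP synthetases make the starting sugar phosphate. Of their 5 genes PRS4 fell by 0.59 ± 0.15 (limma adjusted p = 0.0273), a call lost in 5 of the 8 fits without 1 array, and the other 4 did not pass. Of 7 genes for one-carbon units and glycine, which feed the ring, 2 fell and 5 did not pass, among them SHM2, the cytosolic serine hydroxymethyltransferase, at -0.76 ± 0.30 (limma adjusted p = 0.116, and 0.0299 with replicate numbers blocked). SHM1, the mitochondrial serine hydroxymethyltransferase, fell by 0.61 ± 0.16 (adjusted p = 0.0300), and MTD1, a cytosolic methylene-tetrahydrofolate dehydrogenase, fell by 0.66 ± 0.17 (adjusted p = 0.0240). Their calls were lost in 5 and 3 of the 8 fits without 1 array.

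In the branch to GTP, 1 of 5 genes fell. This was GUK1, guanylate kinase, by 0.60 ± 0.18 (limma adjusted p = 0.0497), at the edge of the threshold and lost in 6 of the 8 fits without 1 array. IMD2, of the IMP dehydrogenase family, had 3 probe sets, all of a kind whose probes are shared within a gene family, with differences of -0.06, 0.01 and 0.36, of which none passed. Of 6 genes that interconvert adenine nucleotides and nucleosides, 2 fell. ADO1, adenosine kinase, read 13.64 to 14.17 in the arrays labelled V81G and 14.93 to 15.19 in those labelled wild type, well apart. It fell by 1.21 ± 0.15 on the log2 scale, 2.31-fold (adjusted p = 0.000592), with -1.27 on day 1 and -1.15 on day 2. The wild-type values of ADO1 lay not far below the array maxima (15.42 to 15.43), so a ceiling may shrink the difference. ADK1, the cytosolic adenylate kinase, fell by 0.67 ± 0.16 (adjusted p = 0.0185), a call lost in 3 of the 8 fits without 1 array and after quantile normalization (adjusted p = 0.0507).

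Salvage and uptake genes recover purine bases, and 1 of 12 was called. XPT1, which encodes the xanthine phosphoribosyltransferase, read 11.81 to 12.41 in the arrays labelled V81G and 13.08 to 13.45 in those labelled wild type. It fell by 1.13 ± 0.18 on the log2 scale, 2.18-fold (limma adjusted p = 0.00219), with -1.37 on day 1 and -0.88 on day 2, and was called in all 8 fits without 1 array. The other 11 did not pass, among them APT1, adenine phosphoribosyltransferase, at -0.61 ± 0.21 (adjusted p = 0.0832), which was called lower when replicate numbers were blocked (adjusted p = 0.0454).

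The regulators of the pathway were not called. BAS1 differed by -0.21 ± 0.20 (limma adjusted p = 0.570, 95% confidence interval -0.66 to 0.25), PHO2 by -0.18 ± 0.15 (adjusted p = 0.501, interval -0.53 to 0.17) and GCN4, the activator of amino acid synthesis genes that also acts on many ADE genes, by -0.13 ± 0.14 (adjusted p = 0.606, interval -0.46 to 0.19). PHO2 averaged 8.15 and 8.33, under 9.03, so background may shrink its difference. These are RNA levels, and the amount or activity of the proteins was not measured.

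Bas1 also acts on histidine genes, and histidine synthesis releases AICAR, the substrate of the ADE16 and ADE17 enzymes. Of HIS1, HIS4 and HIS7, 2 fell. HIS7, at -0.56 ± 0.22, did not pass (limma adjusted p = 0.123), with -0.18 on day 1 and -0.95 on day 2. HIS1, whose product begins histidine synthesis from ATP and PRPP, read 11.45, 11.10, 12.87 and 12.77 in V81G arrays 1 to 4 and 13.49, 13.45, 13.68 and 13.76 in wild-type arrays 1 to 4. As for ADE17, both V81G arrays of day 1 were the dimmest. It fell by 1.55 ± 0.37 (limma adjusted p = 0.0187), with -2.20 on day 1 and -0.90 on day 2, and the difference between the days passed the interaction test (1.30 ± 0.22, adjusted p = 0.0396). The call of HIS1 was lost without wild type 1 or wild type 4 (adjusted p = 0.0502 and 0.0584). HIS4 was 3.26-fold lower, with log2 differences of -1.43 on day 1 and -1.98 on day 2.

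**Figure D4:**
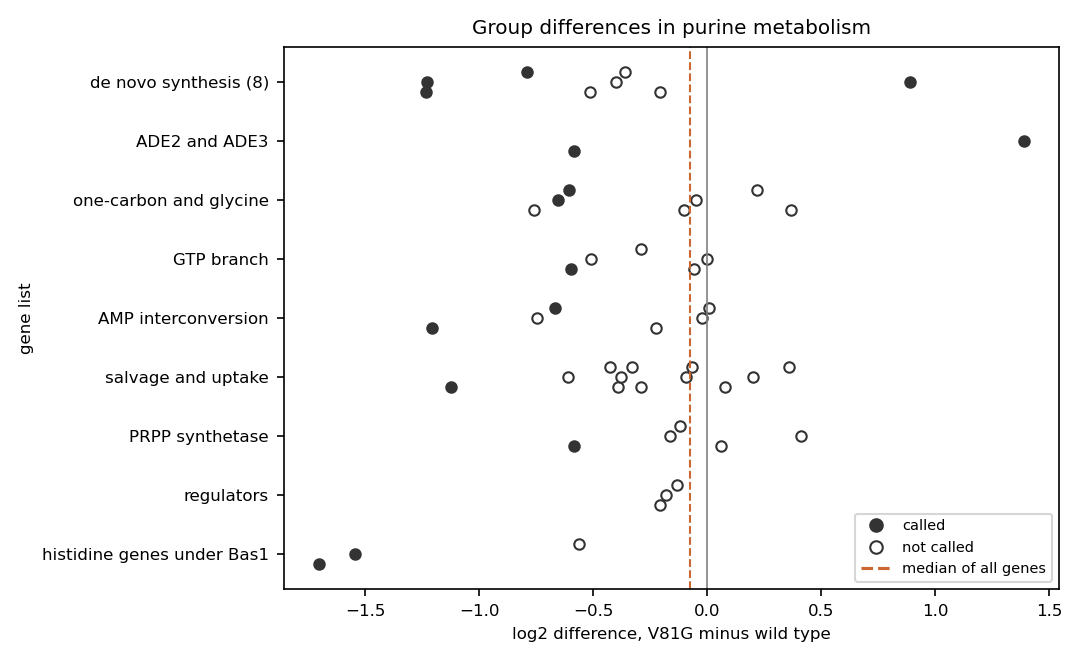
Log2 difference, V81G minus wild type (horizontal axis), of each gene in the lists of purine metabolism (vertical axis; points are spread within a list for visibility), filled where the limma adjusted p is under 0.05, with the median of all genes, -0.08, as a dashed line. ADE8 and ADE2 are the filled points to the right of 0, and all other filled points lie to the left.

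Of genes outside these lists, the 5 whose course over the 8 arrays came closest to the mean of the 8 purine genes were RPL13B, TIF34, OAC1, RPL33B and MDE1. Each gene was centred on its own mean, and likeness was the root mean square distance over the arrays, 0.03, 0.04, 0.06, 0.07 and 0.07 for these genes and 0.38 as the median of 5594 genes. They encode ribosomal proteins (RPL13B and RPL33B, each with a near-identical paralog, so that their single levels are uncertain), a subunit of translation initiation factor 3 (TIF34), a mitochondrial oxaloacetate carrier (OAC1) and an enzyme of methionine salvage (MDE1). The purine genes themselves lay between 0.15 (ADE4) and 0.70 (ADE8) from their mean, so the mean course resembled ADE4 and ADE13 (0.18) and stood far from ADE8.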

How the data were processed

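Each of 8 samples was 1 single-colour Affymetrix YG_S98 yeast array. The deposited values are probe-set intensities on a linear scale (read from the values), made with RMA per the submitters' processing notes; later scaling or centring stays unknown. The highest log2 value was 15.43, near a shared ceiling. The log2 values of 9275 probe sets, without 60 control probe sets, were fitted by limma (version 3.58.1, under R 4.3.3) with group as the only term, two-sided, using lmFit and eBayes, after a check on simulated data. Gene symbols are those of the platform annotation, brought up to date with RefSeq gene IDs, and 6504 probe sets had 1 gene, 328 several and 2443 none listed. The brightest probe set stood for a gene with several (315 of 5656 genes). No sequence or genome was used. Day and fluidics station came from the run sheets, per the file headers. The precision is limited by 4 arrays per group. The titles call the arrays biological replicates. Deviations from group means of arrays with the same replicate number correlated across probe sets at r = 0.238, 0.228, 0.436 and 0.258. Each V81G array correlated best with a wild-type array of its own hybridization day, but only 1 of the 4 with its own number. The data thus do not show that the numbers pair the arrays beyond the shared day. All member genes, ADE2, ADE3, BAS1, PHO2 and GCN4, and up to 2 called rises and 2 falls per list were named by rule. The rule also named the 5 genes most alike in course and HYP2. ANB1, SHM2, APT1, HIS7, YNK1, IMD2 and others named in the closing section were chosen after their values were seen. Members and lists were chosen with earlier results of these data known. Alternatives were blocks by replicate number, day and station, single days, leaving out each array, a filter on the lowest 25% of probe sets, other scalings, an intensity trend, and averaging probe sets.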

Additional observations from a re-analysis of the deposited data

Results flagged for a closer look

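No purine synthesis gene of the list met a criterion for a closer look. Among the related genes, the group difference of HIS1 was 1.30 higher on day 2 than on day 1, and that of YNK1, nucleoside diphosphate kinase, was -1.22, meaning lower on day 2 (limma interaction adjusted p = 0.0396 and 0.0449). YNK1 read 13.06, 13.24, 11.95 and 12.13 in V81G arrays 1 to 4 and 13.25 to 13.53 in the arrays labelled wild type, and its difference over all arrays, -0.75 ± 0.28, did not pass (adjusted p = 0.0997). Blocking by day, YNK1 was called lower (adjusted p = 0.0387), as it was with day and station as covariates (-0.91, adjusted p = 0.00154). Thus the V81G arrays of day 1 were the low ones for HIS1 and those of day 2 for YNK1. Both values rest on 2 arrays per group and day, and on day 1 the fluidics stations differed between the groups.

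In 5 of 102 groups of 4 arrays, 1 array stood apart from the other 3, with a gap that made up a larger share of the whole range than Dixon's 95% critical value allows (shares in parentheses), and chance gives about 1 such group in 20. They were IMD4 in V81G 3 (0.986), FCY22 in V81G 2 (0.942), IMD3 in wild type 4 (0.894), APT1 in V81G 3 (0.874) and ISN1 in wild type 2 (0.840). IMD4 read 14.51 in V81G 3 against 13.84 to 13.85 in the other V81G arrays, and APT1 read 11.58 against 10.74 to 10.84.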

How the results depend on the processing

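The calls of ADE8 and ADE12 were kept in every fit that left out 1 array, under each block, filter and scaling; ADE8 lost its call on day 1 alone, where 0 of the 8 purine synthesis genes were called higher. Without 1 array, 1 of the 8 was called higher each time and 1 to 4 lower, 1 of the 43 related genes was called higher and 4 to 9 lower, and 1131 to 1555 probe sets passed where all arrays gave 1628. With the day as a block 5 of the 8 were called lower and 2 and 16 of the related genes higher and lower. With day and station as covariates 5 of the 8 were called lower, ADE16 in place of ADE13, 3 related genes higher, and 3039 probe sets passed. Day 2 alone gave 2 related genes higher. Quantile normalization gave 6 related genes lower and 1 of the 8 (ADE17) with a difference between days. The replicate number as a block changed no call of the 8, with 1 higher and 3 lower, and 1858 probe sets passed. The sign turned for ADE6 on day 2 (0.0488), PHO2 on day 1 (0.0679), GCN4 after quantile normalization (0.0572) and ADE17 minus ADE16 on day 2 (0.0159), which ranged from -1.12 to -0.53 without 1 array; none of these values was called. The cause of these changes was not tested. Signal over background limits ADE4 and PHO2, both under 9.03.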

Other observations

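Measured genes next to the 8 purine synthesis genes and ADE2 and ADE3 along the chromosomes, 20 in all, were called in 2 cases, where 21.5% of all genes were called: 1 rose, 1 fell and 18 did not pass, with a median difference of -0.04. Both neighbours of ADE8, TRS120 and SIZ1, differed by -0.22 ± 0.20 and -0.16 ± 0.15 (limma adjusted p = 0.539 and 0.551), while ADE8 rose. Next to ADE12, ALG9, a glycosyltransferase gene, fell by 0.47 ± 0.13 (adjusted p = 0.0287) and POP1, of RNase P, differed by 0.23 ± 0.20 (adjusted p = 0.498). Next to ADE2, RGA1, a GTPase-activating protein gene, rose by 0.65 ± 0.18 (adjusted p = 0.0349) and AFI1 differed by 0.11 ± 0.18 (adjusted p = 0.733). ADE16 and ADE17 each lie next to a copy of the same ribosomal protein gene, RPL15A (-0.39 ± 0.15, adjusted p = 0.114) and RPL15B (-0.03 ± 0.14, adjusted p = 0.916). Whether the probe set of either copy also reads the other was not tested, so their single levels are uncertain. These neighbours were looked up after the values of the purine genes were known.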
